A study of Homo sapiens with 2 samples.

Results

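Complex I (NADH:ubiquinone oxidoreductase) is the entry point of electrons from NADH into the mitochondrial respiratory chain. Its nuclear genes were taken by symbol: every NDUFA, NDUFB, NDUFC, NDUFS, NDUFV, NDUFAF and NDUFAB gene with a number, together with the assembly factor genes ACAD9, ECSIT, TMEM126B, TIMMDC1, FOXRED1 and NUBPL. Read-through genes were left out. This gave 51 genes, 37 of subunits and 14 of assembly factors, out of 16085 genes and loci in the files. All 51 were measured, that is, reached an FPKM (fragments scaled to the length of the gene and the size of the library) of at least 1 in either library, as did 12274 genes and loci in all. The gene once called NDUFA4 is COXFA4 in the current annotation, as a subunit of complex IV, and was not counted. Its FPKM was 62.8 in the shCtrl and 68.4 in the shZEB1 library.

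The libraries were made from poly(A) RNA, and the label names the cells MDA-MB-231, a human triple-negative breast carcinoma line. The series asks how ZEB1, a repressor of epithelial genes, acts on the M2-like state of macrophages in the tumour. The control library is shCtrl, from cells carrying a control hairpin, and the other is shZEB1, from cells carrying a hairpin RNA against ZEB1. The sources used here give neither the hairpin sequences nor the vector, nor how many clones or cultures each library stands for. Each group had 1 library, so no test was made and no p-value is given, and every difference is one between libraries.

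The shCtrl library held 8740584 assigned reads and the shZEB1 library 8441491. ZEB1 itself had 46 and 15 reads, at an FPKM of 0.88 and 0.31. The marker genes did not match the label of the line: all 7 melanocyte markers were measured, with a median FPKM of 175 in shCtrl and 128 in shZEB1, against 5.97 and 5.47 for the 6 of 8 breast line markers that were measured, and KRT19 was listed in neither file. The summed FPKM of the melanocyte list was 1649 in shCtrl and 1204 in shZEB1, with 4 of its 7 genes lower. Of the 6 measured breast line markers, 4 were higher and 1 was lower. By the same read interval 27.9% of all measured genes and loci were higher and 21.4% lower. The lower marker was AXL (445 and 355 reads, ratio 0.826), and CAV1 had a ratio of 0.955 with an interval that included 1. The higher ones had read ratios of 1.45 for KRT18, 1.93 for MET, 2.19 for F3 and 2.26 for KRT7. MET (44 and 82), F3 (17 and 36) and KRT7 (11 and 24) had few reads. Of the macrophage markers, 0 of 5 were measured, and of the fibroblast markers 1 of 5 was. The part of cell identity in the values below was not tested, and in bulk RNA fewer cells of a type and less RNA per cell cannot be told apart.

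Complex I is built in modules. The N module, at the tip of the matrix arm, oxidises NADH, the Q module below it passes the electrons over iron-sulfur clusters to ubiquinone, and the membrane arm, whose core subunits are encoded by mitochondrial DNA, pumps protons. Around the catalytic core lie accessory subunits, and a set of assembly factors, absent from the finished enzyme, joins the modules.

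Complex I genes were expressed at close to the same level in both libraries. The size rule, a log2 ratio of FPKM plus 1 of at least 1 in either direction together with a read ratio whose 95% interval excluded 1, called 0 of the 51 higher and 0 lower in shZEB1. Of all measured genes and loci it called 0.937% higher and 1.61% lower. At shares this small, counts of 0 of 51 do not set complex I genes apart from other genes. By the interval of the read ratio alone, which covers counting error only, 9 genes were higher, 6 were lower and 36 had an interval that included 1. The background shares were 27.9% higher and 21.4% lower over all measured genes and loci, and 28.2% and 23.1% over the 9349 with as many shCtrl reads as these genes (79 to 2153). With edgeR's TMM scaling 5 of the 51 were higher and 7 lower, and the shares of all measured genes were 22.8% and 26.3%. Both counts of complex I genes were smaller parts of the 51 than the background shares.

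The median log2 ratio of FPKM plus 1 was -0.01, against 0.02 for all measured genes and loci. Read ratios lay in a narrow band: 48 of the 51 genes were between 0.8 and 1.25, a band chosen after the values were seen, against 60.9% of all measured genes and loci and 66.2% of those in the same range of reads. The interquartile range of the log2 read ratio was 0.14 for complex I genes and 0.44 for genes and loci in that range. The width differed between role groups, some of them very small. It was 0.41 for N module accessory subunits, 0.29 for assembly factors and 0.25 for the distal membrane arm. In the other role groups with more than 1 gene it was 0.01 to 0.15. Among other lists it was 0.11 for complex III subunit genes, 0.15 for genes of other dehydrogenases that reduce ubiquinone, 0.18 for complex IV and 0.26 for ATP synthase. For further complex I assembly genes outside the symbol rule it was 0.25. A narrow spread was therefore not particular to complex I. Genes and loci in that range had a median of 376 shCtrl reads, against 514 for complex I genes. The median was 1470 for complex III, 1067 for the dehydrogenase genes, 1269 for complex IV and 1152 for ATP synthase. It was 376.5 for the further assembly genes. Counting error therefore also differs between these sets, and is smaller where reads are more. Summed over the 51 genes there were 28828 reads in shCtrl and 28167 in shZEB1, a ratio of 1.01 (interval 0.995 to 1.03).

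**Figure D1:**
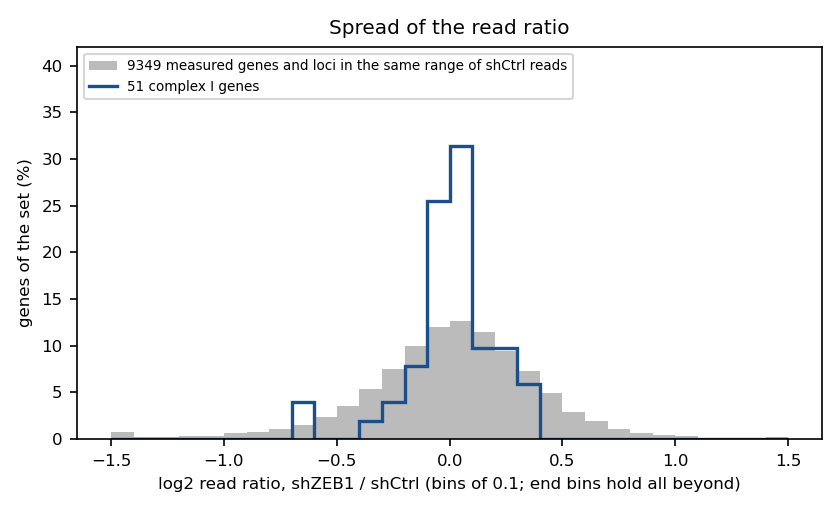
Percent of genes in each bin of the log2 read ratio of shZEB1 to shCtrl, for the 51 complex I genes (blue outline) and for 9349 measured genes and loci with the same range of shCtrl reads (grey bars). The complex I genes are gathered around 0, and the small block to the left holds NDUFA6 and NDUFA7.

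The N module has 3 core subunits. NDUFV1 (chr11:67606936-67612554, hg38) carries the flavin that takes the electrons from NADH, and NDUFV2 (chr18:9102699-9134341) and NDUFS1 (chr2:206114817-206159444) hold iron-sulfur clusters. NDUFV1 had 1384 reads in shCtrl and 1355 in shZEB1, an FPKM of 101 and 102, and a read ratio of 1.01 (0.940 to 1.09). NDUFV2 had 803 and 767 reads, an FPKM of 105 and 103, and a ratio of 0.989 (0.895 to 1.09). NDUFS1, the largest subunit of the enzyme, had 904 and 1062 reads, an FPKM of 30.3 and 36.7, and a ratio of 1.22 (1.11 to 1.33). It was the only one of the nuclear core subunits described here whose interval excluded 1.

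The core subunits of the Q module described here, NDUFS7, NDUFS8 and NDUFS3, had read ratios whose intervals included 1. NDUFS7 (chr19:1383907-1395584), which lines the pocket where ubiquinone binds, had 551 and 548 reads, 85.5 and 87.1 FPKM, and a ratio of 1.03 (0.913 to 1.16). NDUFS8 (chr11:68030681-68036644), which carries a pair of iron-sulfur clusters, had 519 and 498 reads, 77.9 and 76.6 FPKM, and a ratio of 0.994 (0.877 to 1.13). NDUFS3 (chr11:47579074-47584562), a core subunit with no cofactor, had 784 and 736 reads, 98.6 and 95 FPKM, and a ratio of 0.972 (0.878 to 1.08). The accessory subunits NDUFA5 and NDUFA9, the latter bound at the joint of matrix and membrane arms, had ratios of 1.03 (0.927 to 1.15) and 1.05 (0.95 to 1.16). NDUFA5 had 14.0 and 14.4 FPKM, and NDUFA9 had 55.3 and 57.9.

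Among the 7 accessory subunits of the N module, 1 was higher and 2 were lower, against 27.9% and 21.4% of all measured genes and loci. NDUFA7 and NDUFA6 had the 2 lowest read ratios of all 51 genes. NDUFA7 (chr19:8308595-8321375) had 235 reads in shCtrl and 142 in shZEB1, an FPKM of 51.4 and 31.7, and a read ratio of 0.626 (0.504 to 0.774). NDUFA6 (chr22:42085526-42090772), a small subunit of the LYR motif family that binds the acyl carrier protein, had 463 and 290 reads, an FPKM of 46.4 and 29.9, and a ratio of 0.649 (0.558 to 0.753). Both remained short of the 2-fold size rule, with log2 ratios of FPKM plus 1 of -0.68 and -0.62. NDUFS6, which binds zinc and is needed for late assembly of the N module, was at the other end of the group: 764 and 840 reads, 175 and 196 FPKM, and a ratio of 1.14 (1.03 to 1.26). The other 4 accessory genes, NDUFA2, NDUFA12, NDUFS4 and NDUFV3, had ratios of 0.999 to 1.09 with intervals that included 1. NDUFS4, whose loss causes Leigh syndrome, had 199 and 209 reads and an FPKM of 37.0 and 39.9. Sources differ on whether NDUFA6, NDUFA7 and NDUFA9 belong to the N or the Q module, which changes the group counts and none of these values.

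The starts of NDUFA7 and NDUFA6 share a short word, which is shown here because these genes lay apart from the rest. RefSeq promoter sequences (GRCh38.p14, 250 bases before to 50 after the gene start) were found for 44 of the 51 genes, and NDUFS5, NDUFB5, NDUFB9, NDUFC2, NDUFAF6 and FOXRED1 were among those without one. The core of the YY1 motif, AAGATGGC, was in 6 of the 44 (13.6%), against 5.72% of the promoters of measured genes and 3.03% of all 27305 in the table, counting both strands. In all 6 it lay on the strand of the gene, 10 to 25 bases after the gene start, and its ATG was the start codon that GENCODE release 29 annotates. Each is printed from 10 bases before the word to 10 bases after it, with the word in capitals and in the order of the read ratio, lowest first.
NDUFA7 (chr19:8321344-8321371, minus strand): tcgcggacggAAGATGGCgtccgccacc
NDUFA6 (chr22:42090730-42090757, minus strand): atgctttggcAAGATGGCggggagcggc
NDUFS7 (chr19:1383914-1383941, plus strand): ggccgaggccAAGATGGCggtgctgtca
NDUFA9 (chr12:4649114-4649141, plus strand): attgtgggaaAAGATGGCggctgccgca
NDUFA3 (chr19:54102866-54102893, plus strand): cgcggagacaAAGATGGCtgcgagtaag
NDUFS4 (chr5:53560650-53560677, plus strand): tgcctgcagcAAGATGGCggcggtgtca

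The other 4 carriers of the word, NDUFS7, NDUFA9, NDUFA3 and NDUFS4, had read ratios of 1.03 to 1.09, and their intervals included 1. The word was therefore in the promoters of NDUFA7 and NDUFA6 and also in those of genes with nearly equal levels. YY1, the factor the motif is named for, had 685 reads in shCtrl and 642 in shZEB1, with a ratio of 0.970 (0.870 to 1.08). A match is no more than these letters in this window, and binding was not measured. The whole windows of NDUFA7 and NDUFA6 follow, with the YY1 word in capitals, and in NDUFA6 also a pair of CCAAT boxes, the motif of NF-Y.
NDUFA7 promoter (chr19:8321326-8321625, minus strand): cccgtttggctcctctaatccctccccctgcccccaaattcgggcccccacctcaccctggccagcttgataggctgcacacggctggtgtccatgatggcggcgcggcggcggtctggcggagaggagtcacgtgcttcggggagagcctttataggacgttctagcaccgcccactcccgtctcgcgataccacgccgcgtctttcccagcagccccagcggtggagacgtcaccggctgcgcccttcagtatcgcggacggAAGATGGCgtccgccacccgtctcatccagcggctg
NDUFA6 promoter (chr22:42090723-42091022, minus strand): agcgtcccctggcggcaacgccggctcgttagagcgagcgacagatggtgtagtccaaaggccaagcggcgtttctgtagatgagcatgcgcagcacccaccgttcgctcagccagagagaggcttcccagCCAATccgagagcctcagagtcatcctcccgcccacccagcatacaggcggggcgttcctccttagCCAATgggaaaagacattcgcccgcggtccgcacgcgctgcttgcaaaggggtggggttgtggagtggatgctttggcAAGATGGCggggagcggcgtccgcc

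The other motifs searched, on both strands, were GCGCANGCG (NRF1, a regulator of nuclear genes for respiration), CCGGAAG (ETS factors such as GABPA), CCAAT (NF-Y) and CAGGTG (an E-box of the kind ZEB1 binds). No one of these 5 motifs lies within another, though matches can share bases at their ends. The NRF1 motif was in 11 of the 44 promoters (25%), against 15.5% of those of measured genes and 8.05% of all in the table. Its 11 carriers had read ratios of 0.999 to 1.15, with NDUFB4 and NDUFS6 higher and 0 lower, against background shares of 27.9% and 21.4%. With TMM or DESeq2 scaling 0 of the 11 were higher and 0 lower. The background shares were then 22.8% and 26.3% with TMM and 23.3% and 25.9% with DESeq2. The ETS motif was in 7 (15.9%, against 20.5% of measured genes) and CCAAT in 14 (31.8%, against 37.3%). The E-box CAGGTG was in 6 (13.6%, against 17.2% of measured genes and 20.6% of all): NDUFB7, NDUFS3, NDUFS7, ACAD9, NDUFA3 and NDUFS6. Their read ratios ran from 0.885 to 1.14, and the interval excluded 1 in NDUFS6 alone. With TMM or DESeq2 scaling it excluded 1 in NDUFB7 alone, which was then lower. The median GC content was 61.0% in the promoters of complex I genes and 65.7% in those of measured genes.

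The 9 accessory subunits of the proximal membrane arm, next to the ubiquinone site, had 1 higher gene and 0 lower. The shares over all measured genes and loci were 27.9% and 21.4%. NDUFA10 (chr2:239892442-240025342), a subunit related to deoxyribonucleoside kinases, had 678 and 803 reads, an FPKM of 15.9 and 19.5, and a ratio of 1.23 (1.11 to 1.36). The lowest ratio of the group was that of NDUFA13 (chr19:19516225-19528198), also known as GRIM-19, a cell death regulator first described in interferon and retinoid treated cells. It had 743 and 691 reads, an FPKM of 172 and 163, and a ratio of 0.963 (0.867 to 1.07). NDUFS5, NDUFA8, NDUFA1, NDUFA3, NDUFA11, NDUFC1 and NDUFC2 had ratios of 0.971 to 1.08, all with intervals that included 1. NDUFS5 and NDUFA8 have the paired cysteine motifs of proteins imported into the intermembrane space, and had 202 and 198 FPKM and 62.3 and 66.5 FPKM. NDUFA1, which is encoded on the X chromosome and is needed for membrane arm assembly, had 127 and 123 FPKM.

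In the distal membrane arm 3 of 11 genes were higher and 2 lower, close to the shares of 27.9% and 21.4% over all measured genes and loci. With TMM or DESeq2 scaling 2 were higher, NDUFB5 and NDUFB6, and 3 lower, NDUFB7, NDUFB8 and NDUFB9. These too were close to the shares over all measured genes and loci, 22.8% and 26.3% with TMM and 23.3% and 25.9% with DESeq2. NDUFB6 (chr9:32553001-32573159) had 334 and 402 reads, an FPKM of 46.8 and 57.2, and the highest ratio of all 51 genes, 1.25 (1.08 to 1.45). NDUFB5 was close to it with 509 and 612 reads, 58.6 and 71.8 FPKM and a ratio of 1.24 (1.11 to 1.40), and NDUFB4 had 108 and 123 FPKM and a ratio of 1.15 (1.02 to 1.30). NDUFB9 (chr8:124539123-124549979), another LYR motif subunit that binds the acyl carrier protein, was the most abundant gene of the set and lay lower in shZEB1. It had 2153 and 1740 reads, an FPKM of 366 and 302, and a ratio of 0.837 (0.785 to 0.892). NDUFB8 was the other lower gene, with 140 and 124 FPKM and a ratio of 0.896 (0.811 to 0.990). NDUFB7, with a ratio of 0.885 (0.769 to 1.02) from 446 and 381 reads, had an interval that included 1, and was lower with TMM, DESeq2 or median scaling. NDUFB1, NDUFB2, NDUFB3, NDUFB10 and NDUFB11 had ratios of 0.954 to 1.05. The reads of the whole arm summed to a ratio of 0.978 (0.947 to 1.01), which included 1. NDUFAB1, the mitochondrial acyl carrier protein that both LYR subunits hold, had 706 and 682 reads, at 109 and 108 FPKM and a ratio of 1.00 (0.899 to 1.11).

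**Figure D2:**
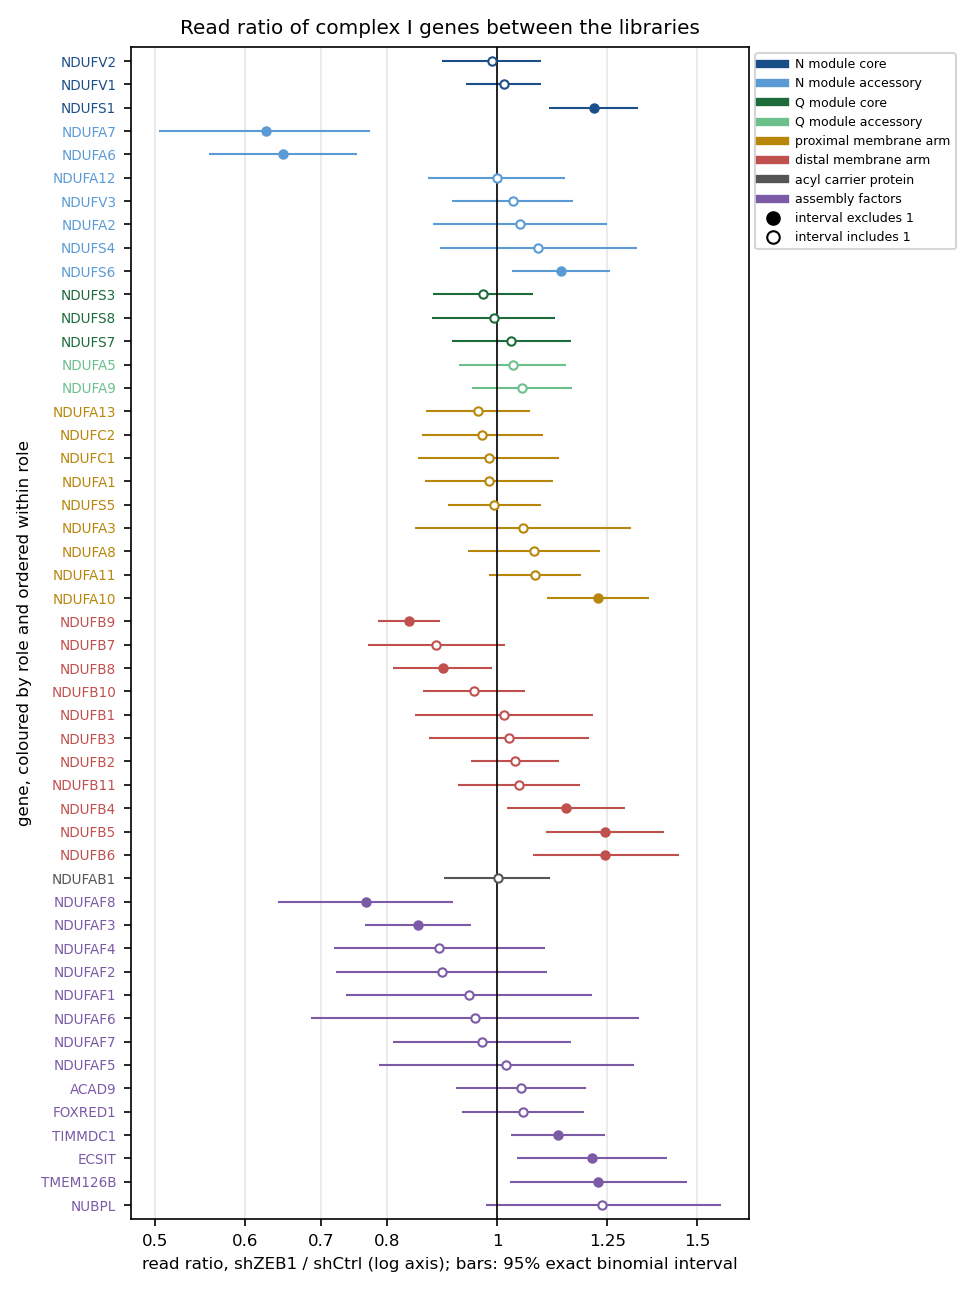
Read ratio of shZEB1 to shCtrl (log axis, reads scaled to library totals) for 50 of the 51 genes, coloured and grouped by role, with 95% exact binomial intervals. Filled points have intervals that exclude 1: 9 lie above 1 and 6 below, and the filled points below 1 start with NDUFA7 at 0.626 and NDUFA6 at 0.649.

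The 14 assembly factors had 3 higher genes and 2 lower, against 27.9% and 21.4% of all measured genes and loci. The higher ones were TMEM126B, ECSIT and TIMMDC1. TMEM126B, of the MCIA complex that builds part of the membrane arm, had 232 and 275 reads, an FPKM of 24.1 and 28.9, and a ratio of 1.23 (1.03 to 1.47). ECSIT, also an adaptor of Toll-like receptor signalling, had 322 and 377 reads, 22.8 and 27.8 FPKM, and a ratio of 1.21 (1.04 to 1.41). TIMMDC1, a membrane protein of the same step, had 844 and 922 reads, 62.8 and 70.7 FPKM, and a ratio of 1.13 (1.03 to 1.24). Other genes of the MCIA complex had intervals that included 1. ACAD9, a flavoprotein related to acyl-CoA dehydrogenases, had a ratio of 1.05 (0.919 to 1.2), and NDUFAF1 had 0.945 (0.737 to 1.21) from 138 and 126 reads. Outside the symbol rule, COA1 had 0.977 (0.841 to 1.13) and TMEM186 had 1.24 (0.938 to 1.65). With TMM or DESeq2 scaling, ECSIT was the only assembly factor that was still higher, against 22.8% and 23.3% of all measured genes and loci.

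The lower assembly factors were NDUFAF8 and NDUFAF3. NDUFAF8 (chr17:81239311-81241310), a small protein that stabilises NDUFAF5, had 301 and 223 reads, an FPKM of 69.2 and 52.2, and a ratio of 0.767 (0.642 to 0.915). NDUFAF5, which hydroxylates an arginine of NDUFS7, had 6.29 and 6.41 FPKM and a ratio of 1.02 (0.787 to 1.32). NDUFAF3, an early factor of the Q module, had 753 and 620 reads, 66.1 and 57.9 FPKM, and a ratio of 0.853 (0.765 to 0.949). Its partner NDUFAF4 had 192 and 165 reads, and its ratio of 0.890 (0.718 to 1.10) included 1. NUBPL (chr14:31561404-31861224), which delivers iron-sulfur clusters, had the highest ratio of the group, 1.24, but its interval of 0.977 to 1.57, from 132 and 158 reads, included 1. NDUFAF7, a methyltransferase, NDUFAF2, a late chaperone that is replaced by NDUFA12, FOXRED1, a late-stage flavoprotein, and NDUFAF6 had ratios of 0.894 to 1.05. The reads of all assembly factors summed to a ratio of 1.02 (0.975 to 1.06).

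**Figure D3:**
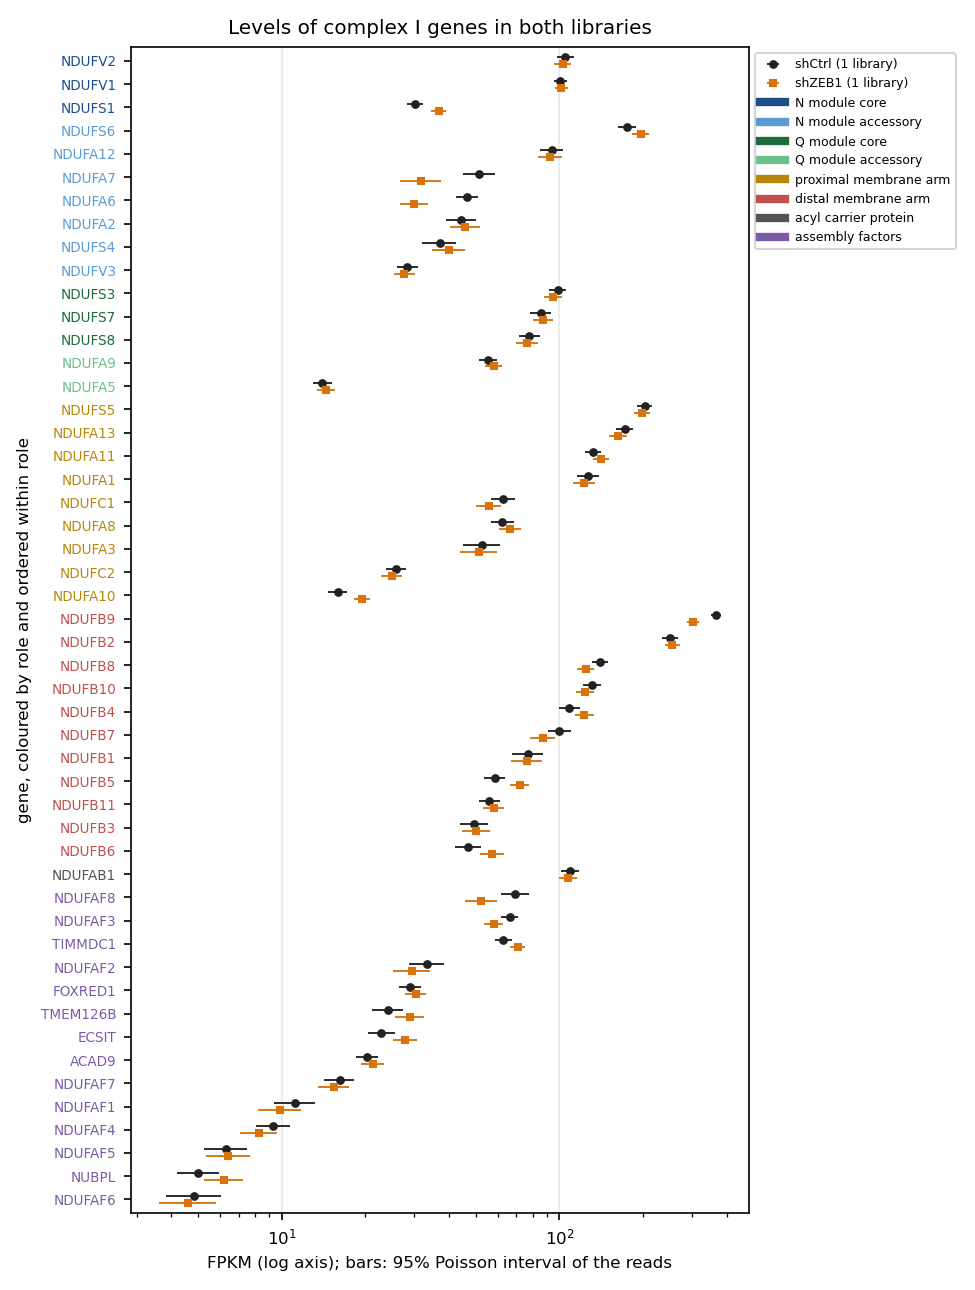
FPKM of 50 of the 51 genes on a log axis in shCtrl (black circles) and shZEB1 (orange squares), grouped by role, with 95% Poisson intervals of the reads carried to FPKM. Subunits lie between 14.0 and 366 and assembly factors between 4.61 and 70.7, and the points of both libraries overlap for most genes.

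Complex I genes were abundant and kept nearly the same order in both libraries. The median FPKM over the 51 genes was 58.6 and 57.9, against 11.1 and 11.2 for all measured genes and loci, and 46 of the 51 reached 10 FPKM in both libraries, against 50.01% of all measured. Subunit genes had a median of 77.9 and 76.6 FPKM and assembly factor genes one of 21.6 and 24.5 FPKM. NDUFB9 was first in both libraries, followed by NDUFB2 (250 and 255 FPKM), and the lowest gene was NDUFAF6 (chr8:94895799-95118496), with 79 and 73 reads and an FPKM of 4.83 and 4.61 (read ratio 0.957, 0.686 to 1.33). Of the 50 pairs of neighbours in the order of levels, counting error separated 6 in shCtrl and 5 in shZEB1. NDUFB9 stood above NDUFB2 and NDUFB2 above NDUFS5 in both, while NDUFS6 and NDUFA13 (175 and 172 FPKM in shCtrl) were separated in shZEB1 alone (196 and 163). Across the 51 genes the correlation of log2 FPKM between the libraries was 0.989, and Spearman's rho of FPKM was 0.988, against 0.975 and 0.974 across all measured genes and loci. These describe genes within a pair of libraries and genes are not replicates.

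Most of these genes have very short transcripts, and the FPKM scale acted on them. The median gene length given by the authors was 878 bases, against 2990 for all measured genes and loci. Of the 51 genes, 28 were under 1000 bases (54.9%, against 6.98%) and 13 were under 700. The range ran from 430 bases for NDUFA3 to 5602 for NDUFA5. Length set the order of levels apart from the order of reads: NDUFA5, with 680 reads in shCtrl, had 14.0 FPKM, while NDUFS6, with 764 reads from 561 bases, had 175. The deposited FPKM was above a plain count of reads scaled to length and library total by a factor whose median over all genes was 1.12 under 700 bases, 1.06 from 700 to 1500, 1.03 from 1500 to 3000 and 1.01 beyond, in shCtrl. In shZEB1 it was 1.10 under 700 bases and 1.01 beyond 3000. FPKM ratios of short genes therefore lay below their read ratios: where a gene had equal length in both files, the FPKM ratio was 0.985 of the read ratio in the shortest class and 0.998 in the longest. For the 24 complex I genes with equal lengths it ran from 0.980 for NDUFB1 (433 bases) to 0.998 for NDUFA10 (4928 bases). The median log2 FPKM ratio of the 51 genes was -0.01 and their median log2 read ratio was 0.03.

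**Figure D4:**
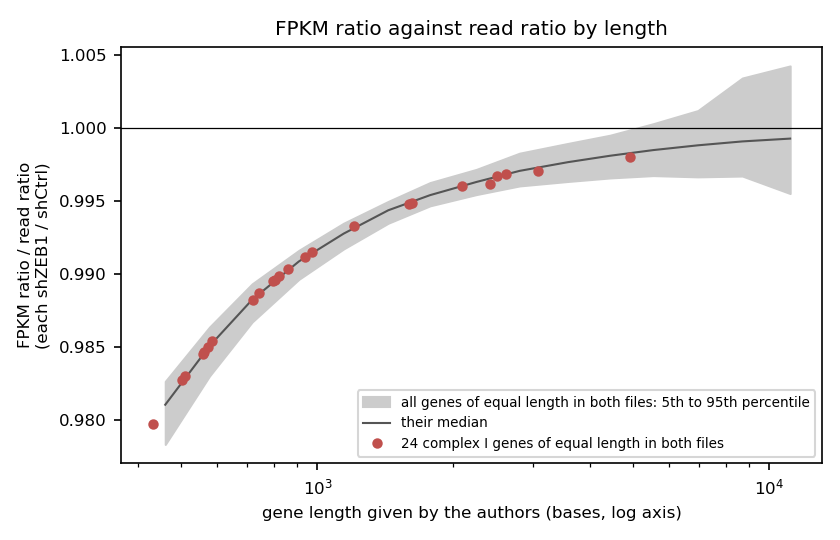
FPKM ratio divided by read ratio (both shZEB1 to shCtrl) against gene length in bases on a log axis, for genes with equal lengths in both files: 24 complex I genes (red) on the median (line) and the range from the 5th to the 95th percentile (grey) of all such genes. The quotient of the complex I genes falls to 0.980 at the short end, and over all such genes under 700 bases it runs from 0.958 to 0.988, with a median of 0.985.

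For 5 genes the length given by the authors differed by more than 3% between the files. NDUFC1 went from 786 to 859 bases, and its FPKM was 62.8 and 55.6, a ratio of 0.886, while its reads, 398 and 378, gave 0.983 (0.852 to 1.13). NDUFA3, NDUFV3 and NDUFAF1 were longer in shZEB1 by 4.98%, 5.47% and 5.84%, and the length of NDUFAF3 fell by 3.11%. The lower read ratio of NDUFAF3 does not use the length. The interval excluded 1 for 4 of the 13 complex I genes under 700 bases, 7 of 21 from 700 to 1500, 2 of 13 from 1500 to 3000 and 2 of 4 beyond. Over all genes with at least 50 reads these shares were 46.7%, 45.1%, 46.7% and 56.2%.

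Many complex I genes lie against other genes, and the sources used here do not say whether the counting used strand. Exons of another gene in GENCODE release 29 overlapped 29 of the 51, 23 on the opposite strand and 14 on the same strand, and 18 have named pseudogenes, 58 in all. NDUFA5 and NDUFB4 have 12 each. NDUFA7 is overlapped on the opposite strand by RPS28, a ribosomal protein gene with 1781 and 1436 reads and a ratio of 0.835 (0.778 to 0.895), and reads of the pair cannot be told apart. The estimated reads of both were not whole numbers. FOXRED1 (514 and 523 reads) overlaps SRPRA, a subunit of the signal recognition particle receptor that had 2715 and 960 reads, a ratio of 0.366 (0.340 to 0.394). YJEFN3, on the strand of NDUFA13, had 89 and 414 reads, a ratio of 4.82 (3.82 to 6.13), while NDUFA13 stayed at 0.963. NDUFB9 overlaps TATDN1, which had 222 and 264 reads and a ratio of 1.23 (1.03 to 1.48), opposite in direction to NDUFB9. NDUFA6 is overlapped by NDUFA6-DT on the opposite strand, for which no value was used here. The same holds for NDUFB6 and SMIM27, and the estimated reads of NDUFB6, 334.06 and 401.82, were not whole numbers. A protein-coding gene without a symbol also overlaps NDUFA7 on its own strand, again with no value used.

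Of the 51 genes, 16 start within 1000 bases of a protein-coding gene that runs the other way, leaving out pairs with longer overlaps at their starts. Examples are given side by side, with no test of the difference within a pair. NDUFAF8 had a ratio of 0.767 and TEPSIN, which binds the AP-4 coat adaptor, one of 1.22 (1.04 to 1.43). NDUFS6 had 1.14 and MRPL36, of the mitochondrial ribosome, 0.782 (0.644 to 0.947). NDUFV3 had 1.03 and WDR4, a tRNA methyltransferase subunit, 1.5 (1.28 to 1.76). NDUFS1 had 1.22 and EEF1B2, a translation elongation factor, 0.980 (0.923 to 1.04). NDUFB5 and MRPL47, also of the mitochondrial ribosome, had 1.24 and 1.09 (0.895 to 1.34), with overlapping intervals, and NDUFB1 and CPSF2, a polyadenylation factor, had 1.01 and 1.03 (0.942 to 1.12). No complex I gene of these pairs that was higher or lower had a neighbour whose interval excluded 1 in the same direction. NDUFA7 and RPS28, which overlap at their starts and were both lower, are not among these pairs.

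Other genes around complex I were described in the same way, and their counts stand beside shares of 27.9% higher and 21.4% lower over all measured genes and loci. Of 8 further assembly genes outside the symbol rule, 0 were higher and 2 were lower: LYRM2 (8.43 and 5.95 FPKM, read ratio 0.708, 0.604 to 0.829) and AIFM1, the apoptosis-inducing factor that helps import complex I proteins (40.4 and 34.2 FPKM, 0.852, 0.766 to 0.947). Of 8 measured genes of dehydrogenases that also reduce ubiquinone, SDHD of complex II was higher (84.9 and 105 FPKM, 1.25, 1.15 to 1.36), and SQOR, which oxidises sulfide, was lower (10.5 and 5.38 FPKM, 0.486, 0.370 to 0.633). The other complex II subunit genes listed had ratios of 1.01 to 1.07, with intervals that included 1. Complex III had 2 higher and 1 lower of 9 subunit genes, and a median log2 ratio of FPKM plus 1 of 0.05. Complex IV had 1 higher and 4 lower of 11, with COX8A and COX5B lowest at read ratios of 0.798 (0.738 to 0.862) and 0.829 (0.782 to 0.878), and its summed reads had a ratio of 0.930 (0.908 to 0.952), below that of complex I. ATP synthase had 5 higher and 6 lower of 18, and ATP5MF, at 385 and 97.2 FPKM (0.256, 0.228 to 0.286), was the single gene of these lists that met the size rule. The estimated reads of ATP5MF, 1515.16 and 374.27, were not whole numbers, and its interval does not cover the error of dividing reads between gene models.

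Among 10 regulators of genes for respiration, 2 were higher and 2 lower, against 27.9% and 21.4% of all measured genes and loci. GABPA, the DNA-binding part of the ETS factor GABP, had 380 and 516 reads and a ratio of 1.41 (1.23 to 1.61), and TFAM, which packages mitochondrial DNA, had 657 and 771 and a ratio of 1.22 (1.09 to 1.35). PPARGC1A, the coactivator PGC-1alpha, had 166 and 82 reads and a ratio of 0.511 (0.388 to 0.670), at an FPKM of 3.03 and 1.55. NRF1 had 210 and 187 reads and an interval of 0.753 to 1.13 that included 1. By annotation, 36 of the 51 carried the gene ontology label of the mitochondrial respiratory chain in the deposited files, as did 53 of the 12274 measured genes and loci.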

How the data were processed

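Poly(A) RNA of 1 shCtrl and 1 shZEB1 library was sequenced as DNA nanoballs, per the labels' protocols. The submitters' processing notes name HISAT2 2.1.0, Bowtie2 2.2.5, RSEM 1.2.8, DESeq and hg38, with no order or settings. For each library the authors deposited, per the file headers, each gene's length, its expected count (reads as estimated) and its FPKM. The files' Entrez identifiers were matched to RefSeq symbols and GRCh38.p14 coordinates (15183 of 15217). Where 1 file lacked a gene, its value was set to 0.

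Differences were taken as log2 of the ratio of FPKM plus 1, shZEB1 over shCtrl, a scale that understates them at low FPKM. The size rule asked for at least 1 or at most -1 and for a 95% exact conditional binomial (Clopper-Pearson) interval of the read ratio, on rounded expected counts scaled by library totals, that excluded 1. Intervals and read counts cover counting error only. PCR copies were not separated by molecular identifiers, and the error of dividing reads between gene models is not included. Library totals were 8740584 and 8441491 expected counts.

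The genes, the role lists and the other lists were chosen with earlier results of these data known. The values of 1 gene are not reported here and it is left out of the plots by gene. Given in full were the other core subunits, genes called by size, the highest and lowest read ratio of each role group and the most and least abundant gene, with up to 3 genes of each other list. Others are examples chosen after their values were seen. Alternatives were a pseudocount of 0.1, the read ratio, TPM, TMM factors of edgeR 4.0.16, size factors of DESeq2 1.42.0, a median-centred ratio, an FPKM minimum of 5 or none, a 99% interval, a 1.5-fold size rule, 1 length per gene, and the set with COXFA4 (added after seeing the data) or without overlapped genes. Neither edgeR nor DESeq2 was used for a test, since 1 library per group gives no dispersion. Computation used R 4.3.3, SciPy 1.17.1, pandas 2.3.3, NumPy 2.4.6 and Python 3.11.15.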

Additional observations from a re-analysis of the deposited data

How the results depend on the processing

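The count of 0 genes higher by the size rule held under all 12 alternatives run. A 99% interval or an FPKM minimum of 5 can only remove calls, so counts of 0 could not change under them. Dropping the minimum adds no gene to the 51. The count of 0 lower by the size rule held under 11 of 12, and a 1.5-fold rule called 2, NDUFA6 and NDUFA7. Shares of all measured genes under the 1.5-fold rule and the 99% interval were not computed, so counts under these have no background beside them. The 9 genes higher by the read interval became 5 with edgeR's TMM factors, 5 with DESeq2 size factors and 4 with a 99% interval, and ran from 4 to 10 over all alternatives. TMM and DESeq2 multiplied every read ratio by 0.963 and 0.966, and the 5 genes kept under both were NDUFS1, NDUFA10, NDUFB5, NDUFB6 and ECSIT. Of all measured genes and loci, 22.8% were then higher and 26.3% lower with TMM, and 23.3% and 25.9% with DESeq2. The 6 lower genes ran from 5 to 7, with NDUFB7 added under TMM, DESeq2 and median scaling. The pseudocount, the read ratio, TPM and 1 length per gene do not enter the read interval, so counts by that interval were fixed under them. The median log2 ratio of the 51 genes ran from -0.03 to 0.04, so its sign depends on the measure. Medians of the 7 role groups with more than 1 gene stayed within -0.06 to 0.11 under the 9 alternatives run for each. The planned set without NDUFA4 was not run, since that gene is no longer in the set by its symbol. No paired analysis was possible because each group has 1 library. At 79 to 2153 reads a gene, ratios near 1 cannot be resolved for the scarcest assembly factors, and no replicate culture was measured.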
